A study of Canis lupus familiaris with 15 samples.

Results

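mir-224 and mir-452 are neighbouring miRNA hairpins on canine chromosome X. They were chosen by name, on their mature read counts across the 3 disease states, and make up 2 of the 313 hairpins counted. All 15 libraries held both. Each library was made from the spleen of 1 dog (Canis lupus familiaris): 5 with splenic hemangiosarcoma, a malignant tumor of cells that line blood vessels, 5 with splenic nodular hyperplasia, a benign overgrowth of the spleen, and 5 with normal spleen. The masses were removed from client-owned dogs and sorted by histology, with staining for the endothelial protein CD31 used in the diagnosis of hemangiosarcoma. The normal spleens were frozen tissue from an archive, so any difference from normal spleen cannot be told apart from a difference in tissue source. A mass holds tumor cells together with stroma and blood, and in whole tissue a higher level per cell cannot be told apart from more cells of the type that makes the miRNA.

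A miRNA is cut from a folded hairpin transcript, and the mature strand from 1 arm of the hairpin guides a silencing complex to messenger RNAs. In human, mir-224 and mir-452 lie in an intron of GABRE, the gene of the epsilon subunit of the GABA-A receptor, and differ in their seeds. Human mir-224 is best known for high levels in hepatocellular carcinoma, and mouse mir-224 is induced by TGF-beta in ovarian granulosa cells, where it acts on Smad4. Mouse mir-452 is known from the neural crest, where it acts on Wnt5a. In the RefSeq gene table of the dog assembly UU_Cfam_GSD_1.0 both hairpins lie within the span of GABRE on chromosome X, with no other gene or miRNA between them. The submitters name another build, canFam3. GABRE messenger RNA is not read by a small RNA library.

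In all 15 libraries every mature read of both hairpins was counted on the 5' mature sequence, and all of these reads mapped to 1 hairpin only. The counts do not give whether either hairpin has an annotated 3' mature sequence, so no choice of arm is read from this. Counts were scaled to counts per library of 1e+06 reads (CPM) with edgeR's TMM factors, so that 1 read was worth 0.131 to 0.33 CPM. In the normal spleens mir-224 rested on 3 to 16 reads per library, and intervals on such counts cover counting error only.

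mir-224 was rare in the normal spleens, where it ranked 190th to 204th among the miRNAs of a library. In the tumors it was higher, ranking 90th to 166th. Its levels in hemangiosarcoma replicates 1 to 5 were 56.2, 23.3, 10.96, 287.3 and 106.4 CPM. In nodular hyperplasia they were 10.1, 0.437, 0.806, 3.10 and 4.45 CPM, and in normal spleen 0.99, 2.50, 2.20, 2.46 and 1.30 CPM. Every tumor lay above every normal spleen and every nodular hyperplasia library. The gap to nodular hyperplasia was narrow, since the lowest tumor was only 1.08 times the highest hyperplastic spleen. Scaled by library totals alone, these libraries crossed, with 9.36 CPM in tumor replicate 3 and 10.7 CPM in nodular hyperplasia replicate 1. The group means were 96.8 ± 113 CPM in hemangiosarcoma, 3.79 ± 3.92 in nodular hyperplasia and 1.89 ± 0.698 in normal spleen (SD, n = 5 each). The last pair of groups overlapped.

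mir-452 was better represented outside the tumors. Its levels in hemangiosarcoma replicates 1 to 5 were 193.3, 64.2, 12.2, 311.9 and 199.7 CPM. In nodular hyperplasia they were 19.9, 4.51, 3.83, 13.04 and 12.8 CPM, and in normal spleen 15.8, 9.56, 14.7, 12.3 and 13.2 CPM. In this case 4 of 5 tumors lay above all libraries of the other groups, while tumor replicate 3 lay within both of their ranges. The group means were 156.3 ± 119 CPM in hemangiosarcoma, 10.8 ± 6.72 in nodular hyperplasia and 13.1 ± 2.41 in normal spleen (SD, n = 5 each). Nodular hyperplasia and normal spleen did not differ beyond their spread.

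**Figure D1:**
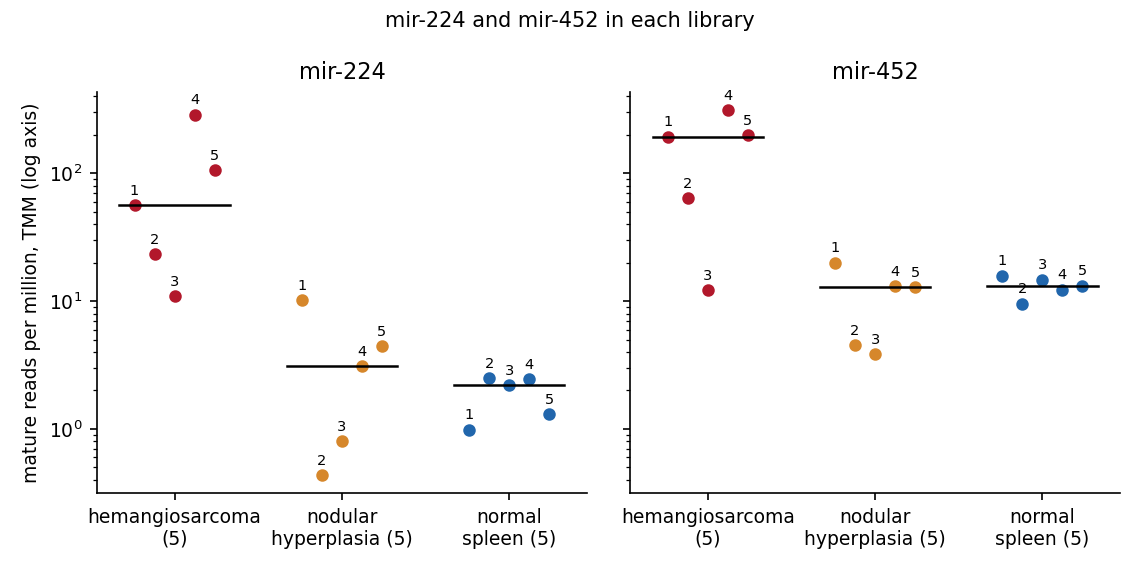
Mature reads of mir-224 and mir-452 per library, in TMM-scaled CPM on a log axis, with the replicate number at each point and a line at each group's median. Tumor replicate 3 was the lowest of the 5 tumors for both miRNAs, at 10.96 CPM for mir-224 and 12.2 CPM for mir-452.

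Both miRNAs varied widely among the tumors. The highest tumor was 26.2 times the lowest for mir-224 and 25.6 times for mir-452, against 2.53 times and 1.66 times among the normal spleens. Tumor replicate 4 was 131 times the median normal spleen for mir-224 and 23.6 times for mir-452, whereas replicate 3 was 4.98 times and 0.92 times. The 5 tumors stood in the same order for both miRNAs, with replicate 4 the highest, then 5, 1, 2 and 3. In the normal spleens the order was nearly the reverse, since replicate 1 had the highest mir-452 and the lowest mir-224, and replicate 2 the lowest mir-452 and the highest mir-224. Among the hyperplastic spleens replicate 1 was the highest for both. Tumor replicate 3 lay beside nodular hyperplasia replicate 1 in the plot of one miRNA against the other, and the other 4 tumors lay above all other libraries on both axes. Both miRNAs of a library share its depth and its scaling factor.

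**Figure D2:**
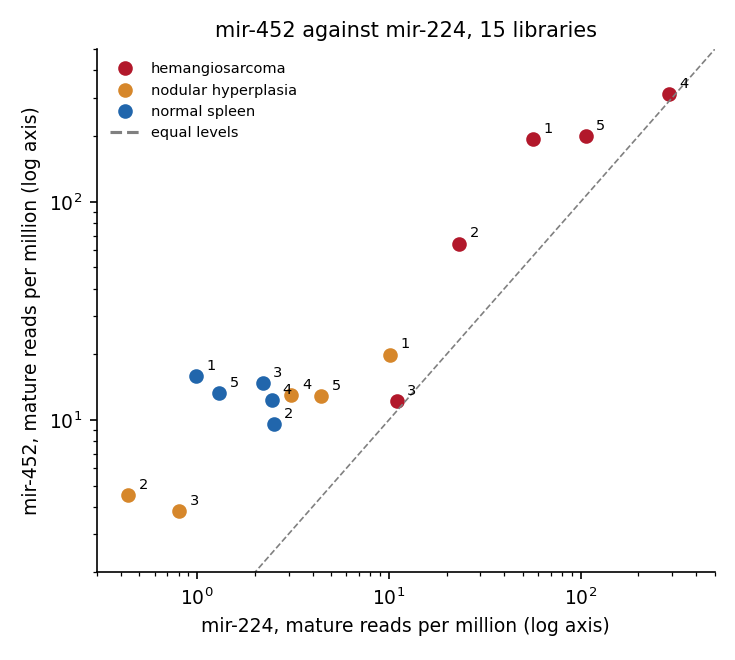
Level of mir-452 against that of mir-224 in each of the 15 libraries, both in TMM-scaled CPM on log axes, with the replicate number at each point and a dashed line at equal levels. The tumors run upward along both axes, from 10.96 and 12.2 CPM in replicate 3 to 287.3 and 311.9 CPM in replicate 4, and the normal spleens span 0.99 to 2.50 CPM of mir-224.

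Hemangiosarcoma was compared with normal spleen across all 250 miRNAs that had at least 10 reads over the 15 libraries, with edgeR's quasi-likelihood test and an adjusted p under 0.05. In this comparison 13.6% of the miRNAs were called higher and 8.8% lower. The log2 fold change was 5.64 ± 0.96 (SE) for mir-224, the 4th highest of 250, and 3.57 ± 0.68 for mir-452, the 11th highest. Both were among those called higher, from which nothing is read because the hairpins were chosen on these counts. Without tumor replicate 4 the log2 fold changes were 4.67 and 3.16, and without replicate 3 they were 6.11 and 4.04. The median log2 fold change over all 250 miRNAs was 0.03. It rose to 0.63 when libraries were scaled by their totals, where mir-224 stood at 6.50 and mir-452 at 4.30.

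The comparison of hemangiosarcoma with nodular hyperplasia sets a malignant against a benign mass from the same kind of surgery. Of the 250 miRNAs, 10.4% were called higher and 8% lower. The log2 fold change was 4.66 ± 0.91 (SE) for mir-224, the 3rd highest, and 3.85 ± 0.69 for mir-452, the 5th highest. Both were again called higher, and nothing is read from it for the same reason. Without tumor replicate 4 the log2 fold changes were 3.69 and 3.44, and without nodular hyperplasia replicate 1 that of mir-224 was 5.45. The tumor libraries are the same as in the comparison with normal spleen, so the values of the 2 comparisons are not independent.

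Nodular hyperplasia and normal spleen were close to each other in both miRNAs. Here 5.6% of the 250 miRNAs were called higher and 6.8% lower. The log2 fold change of mir-224 was 0.98 ± 0.84 (SE), or 0.20 without nodular hyperplasia replicate 1, and that of mir-452 was -0.28 ± 0.62, or 0.22 when libraries were scaled by their totals. Neither passed the test. Nodular hyperplasia replicate 1 was the highest of its group for both miRNAs, with 57 mature reads of mir-224 and 112 of mir-452.

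**Figure D3:**
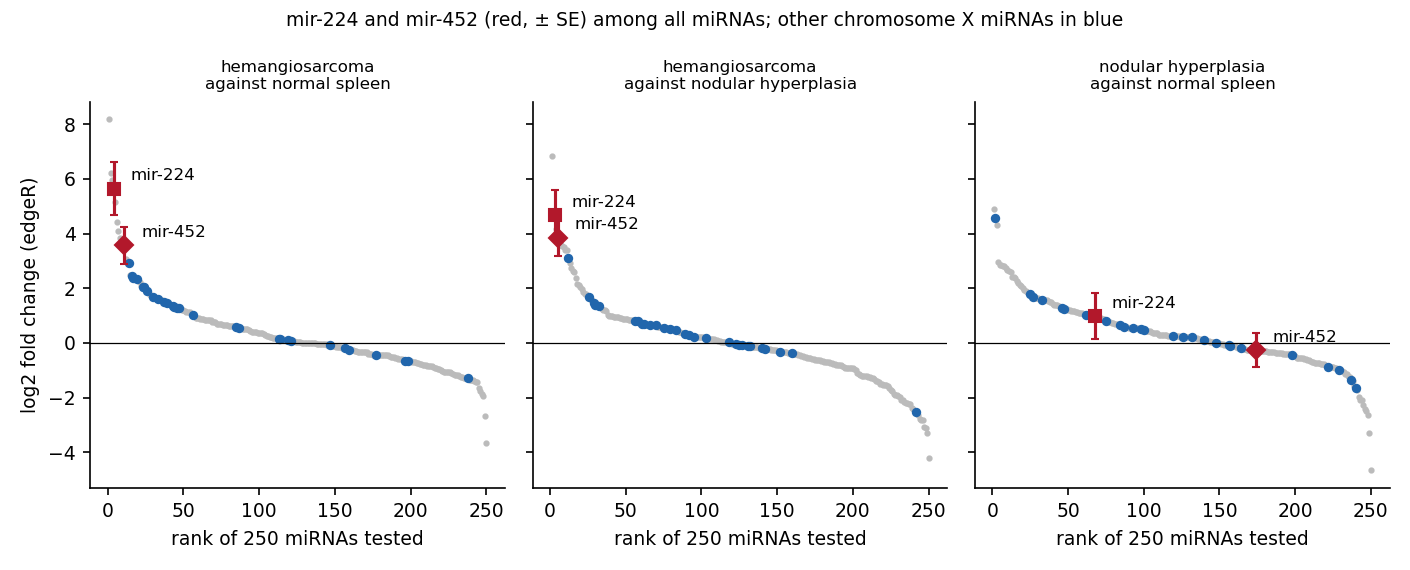
Log2 fold change of the 250 miRNAs tested, ranked from highest to lowest in each comparison, with mir-224 and mir-452 in red with their SE and the 29 other chromosome X miRNAs in blue. Both stand among the 11 highest against normal spleen and the 5 highest against nodular hyperplasia, with log2 fold changes of 0.98 and -0.28 between nodular hyperplasia and normal spleen.

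A full separation of groups was uncommon. Every tumor was above every normal spleen for 6.8% of the 250 miRNAs, above every nodular hyperplasia library for 3.6%, and above both for 3.2%. The last group held 8 miRNAs, of which mir-224 was 1. The others, named here after their values were seen, were mir-125a, mir-126, mir-139, mir-204, mir-24, mir-301b and mir-365. mir-126 is an endothelial miRNA, at 3006 to 13777 CPM in the tumors and at most 2734 CPM in a normal spleen. Of these 8, mir-224 had the highest ratio of the highest to the lowest tumor. mir-452 missed this group through tumor replicate 3 alone.

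The ratio of the neighbours within a library does not depend on scaling. Adapter ligation favours some sequences, so the ratio is not one of molecules and was only compared between libraries. Mature reads of mir-452 per read of mir-224 were 3.44, 2.75, 1.11, 1.09 and 1.88 in hemangiosarcoma replicates 1 to 5, and 1.96, 10.3, 4.75, 4.20 and 2.88 in nodular hyperplasia. In normal spleen they were 16.0, 3.82, 6.69, 5.00 and 10.2. On the log2 scale, with 0.5 added to each count, the mean was 0.88 ± 0.75 in hemangiosarcoma, 1.96 ± 0.82 in nodular hyperplasia and 2.78 ± 0.76 in normal spleen (SD, n = 5 each). All 5 tumors had a lower ratio than all 5 normal spleens, while nodular hyperplasia overlapped both. The gap was narrow, from 3.44 in tumor replicate 1 to 3.82 in normal spleen replicate 2, which had 11 mature reads of mir-224. The intervals for counting error of these libraries, 3.00 to 3.94 and 1.93 to 8.22, overlapped. On average the ratio thus moved toward mir-224 in the tumors, which restates that mir-224 had the larger fold change and was not tested. Whether other pairs of neighbouring miRNAs separate the groups in this way was not tested either.

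Over all reads of the hairpins, which rest on more counts, the ratio was 1.65 to 4.63 in the tumors. It was 2.94 to 9.25 in the hyperplastic and 5.84 to 8.11 in the normal spleens. The normal spleens drew together, from an SD of 0.76 to 0.17 on the log2 scale. They still rested on only 9 to 34 reads of mir-224 each, so this closeness is not read as precision. Among 14 pairs of adjacent chromosome X miRNAs, the SD of the log2 ratio over the 15 libraries was 1.08 for mir-224 and mir-452, the 3rd highest, and had a range of 0.37 (mir-660 and mir-502) to 1.19 (mir-532 and mir-188). For mir-224 and mir-452 counting error amounts to an SD of about 0.47.

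**Figure D4:**
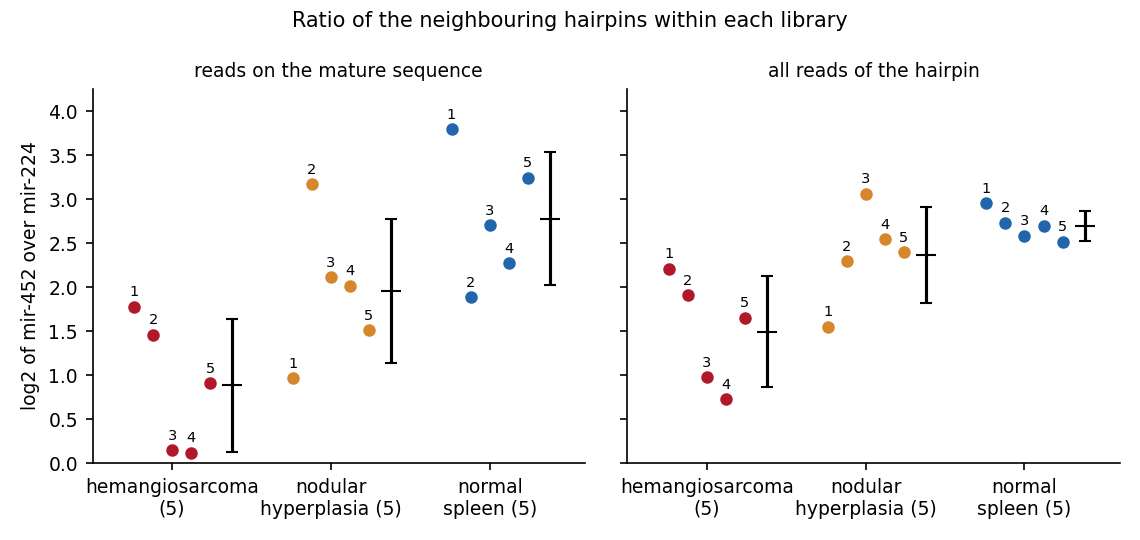
Log2 of mir-452 reads over mir-224 reads in each library, from reads on the mature sequence (left) and from all reads of the hairpin (right), with the replicate number at each point and the mean ± SD of each group beside it. The mean from mature reads is 0.88 in hemangiosarcoma, 1.96 in nodular hyperplasia and 2.78 in normal spleen.

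The hairpins also differed in where their reads fell. Reads outside the annotated mature sequence made up 49.5% of mir-452 reads in hemangiosarcoma, 48.4% in nodular hyperplasia and 47.1% in normal spleen (4017 of 8107, 283 of 585 and 279 of 592 reads). In single tumors this share was 47.8% to 52.7%. Over the other miRNAs together it was 7.85% to 22.8% in the tumors and 4.83% to 8.57% in normal spleen, so the share at mir-452 did not follow that of its library. Among 231 miRNAs with at least 100 hairpin reads, mir-452 had the 38th highest share, and the median was 8.74%. For mir-224 the share was 22.5% in hemangiosarcoma, 20.6% in nodular hyperplasia and 48.9% in normal spleen. In single normal spleens it was 15.4% to 68.4%, from 9 to 34 reads each, and the exact 95% binomial intervals of all of these libraries but replicate 5 overlapped that of a tumor. The counts do not say where on the hairpin these reads lie, or which arm they are from.

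**Figure D5:**
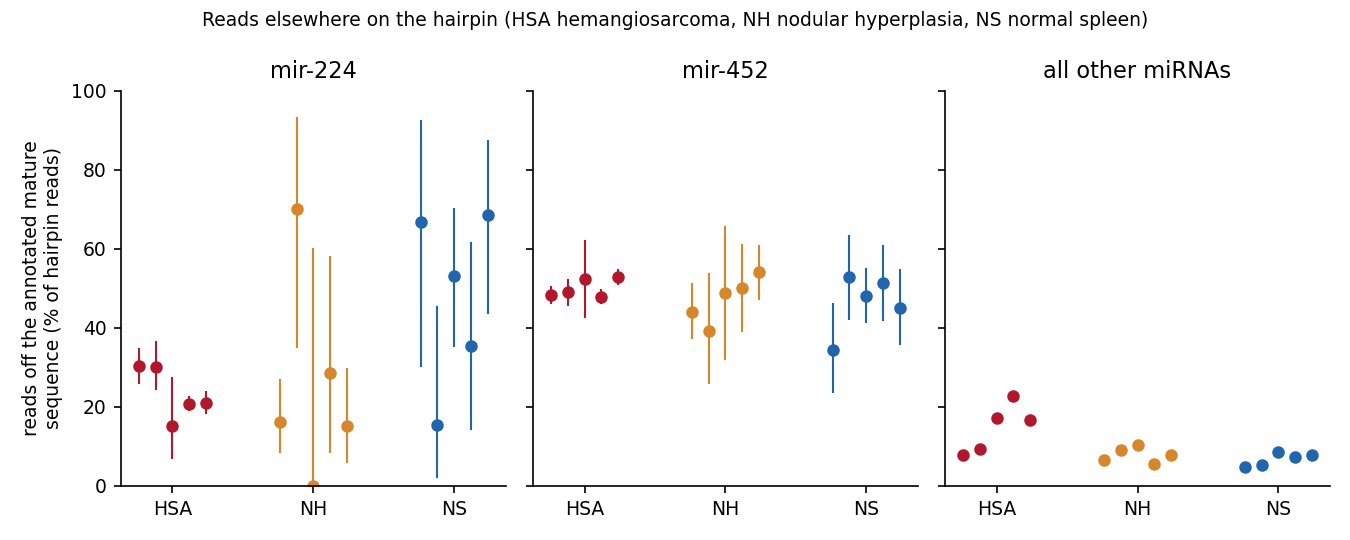
Share of hairpin reads that fell outside the annotated mature sequence, in percent, for mir-224, mir-452 and all other miRNAs together in each library, with exact 95% binomial intervals for the first pair of panels. mir-452 lies between 34.2% and 54.0% in all 15 libraries, and the intervals of mir-224 are wide outside the tumors.

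Many mature reads differed from the annotated sequence. Reads identical to it made up 47.6% of mature mir-224 reads in hemangiosarcoma, 39.8% in nodular hyperplasia and 34.0% in normal spleen. These pooled shares weight libraries by their reads, and tumor replicate 4 alone gave 1378 mature reads with a share of 51.1%. The means over libraries were 42.5%, 41.8% and 32.0%, with ranges of 32.9% to 51.1%, 25.0% to 66.7% and 16.7% to 45.5%, which overlapped. For mir-452 the pooled shares were 26.7%, 37.1% and 36.1%. Its means over libraries were 32.0%, 38.1% and 36.3%, with overlapping ranges of 21.7% to 46.0%, 29.0% to 52.6% and 25.0% to 42.9%. The exact share of mir-452 was 21.7% in tumor replicate 4, with the most reads, and 46.0% in replicate 3, with the fewest (95% exact intervals 19.6% to 23.8% and 31.8% to 60.7%). The same 2 tumors had exact shares of 28.2% and 26.3% over the other miRNAs.

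The miRNAs with the pattern most like each of them were ranked among 183 others with at least 10 CPM as mean of a group. By Spearman's rank correlation over the 15 libraries, which mainly follows the groups, those nearest to mir-224 were mir-450a (0.83), mir-125a (0.81), mir-24 (0.81), mir-193a (0.79) and mir-503 (0.77), with mir-452 13th at 0.71. Those nearest to mir-452 were mir-224 (0.71), mir-490 (0.71), mir-27b (0.69), let-7b (0.68) and mir-204 (0.64). After the group means were subtracted, mir-452 was the nearest to mir-224 by Pearson's correlation (0.89), followed by mir-574 (0.87), mir-320 (0.72), let-7e (0.69) and let-7b (0.69). Likewise mir-574 (0.89) and mir-224 (0.89) were nearest to mir-452, followed by mir-27b (0.81), let-7a (0.77) and let-7b (0.76). The likeness of mir-224 and mir-452 was not shared by all groups. Within single groups their Pearson correlation was 0.92 in hemangiosarcoma, 0.96 in nodular hyperplasia and -0.67 in normal spleen (n = 5 each). mir-574 had group means of 139, 135 and 141 CPM in hemangiosarcoma, nodular hyperplasia and normal spleen, so it lacked the difference between groups that both members show. These are descriptions over libraries that share depth and scaling, and the names depend on the processing. With library totals only 1 of the 5 names nearest to mir-224 by rank stayed in the list, and 3 of those nearest to mir-452. Without tumor replicate 3 these were 3 and 2.

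Other hairpins of the region were nearly silent. mir-105a and mir-105b, which in human lie in an intron of the GABA-A receptor gene GABRA3, are the hairpins that follow on the chromosome. mir-105a had 13, 5, 1, 34 and 6 reads in hemangiosarcoma replicates 1 to 5, against 0 to 18 in the hyperplastic and 2 to 6 in the normal spleens. Its highest and lowest tumors, replicates 4 and 3, were those of mir-224 and mir-452. The log2 fold change against normal spleen was 1.67 ± 0.90 (SE) and did not pass the test (edgeR adjusted p = 0.21). mir-105b had 7 reads in tumor replicate 4 and 1 in replicate 1, and none in the other 13 libraries. On the other side, mir-514 had at most 13 reads in a library, and mir-718 beyond mir-105b had none.

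Chromosome X as a whole was then counted, from the other 36 miRNAs measured that the RefSeq table places only there, of which 29 were tested. The sex of the dogs is not given in the sources used here. For miRNAs of this chromosome, mir-224 and mir-452 included, an effect of disease therefore cannot be told apart from a difference in sex between groups. Against normal spleen, 8 of 29 (27.6%) were called higher in hemangiosarcoma and 1 (3.45%) lower, beside 13.6% and 8.8% of all miRNAs. Their median log2 fold change was 1.26. The highest of those called were mir-450a at 2.93 ± 0.61 (SE), mir-503 at 2.43 ± 0.54, mir-542 at 2.39 ± 0.59 and mir-424 at 2.32 ± 0.60, which are hairpins of a single cluster known for restraining the cell cycle. Their edgeR adjusted p values were 0.0054, 0.0059, 0.010 and 0.012. mir-450b of the same cluster was not called, at 1.27 ± 0.53 (edgeR adjusted p = 0.099). Next among those called was mir-20b of the mir-106a cluster at 1.90 ± 0.62 (adjusted p = 0.036), whose call was lost in 6 of the 15 fits that left out 1 library. In that cluster mir-18b and mir-106a were not called, at 2.05 ± 0.78 and 1.51 ± 0.59 (edgeR adjusted p 0.072 and 0.076). The miRNA called lower was mir-652, at -1.29 ± 0.32 (adjusted p = 0.011), which was not called with library totals (adjusted p = 0.36). None of these rises was as large as that of mir-452.

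Against nodular hyperplasia, 1 of 29 (3.45%) chromosome X miRNAs was called higher, beside 10.4% of all miRNAs, and their median log2 fold change was 0.33. This was mir-504, which in human lies in an intron of FGF13, at 3.12 ± 0.51 (SE, edgeR adjusted p = 0.00073). It averaged 48.0 ± 39.1 CPM in hemangiosarcoma, 5.46 ± 2.37 in nodular hyperplasia and 17.3 ± 3.30 in normal spleen (SD, n = 5 each). mir-504 was also the 1 called between nodular hyperplasia and normal spleen, where it was lower at -1.65 ± 0.49 (adjusted p = 0.037, lost in 9 of the 15 fits that left out 1 library). Tumor replicate 4 was again its highest, at 117 CPM against 19.05 CPM in the lowest tumor.

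miRNAs tied to NF-kB, the transcription factor of inflammatory signalling, were counted as a second list of 6. Against normal spleen 2 rose in hemangiosarcoma, mir-21 at 1.30 ± 0.41 (SE) and mir-9 at 1.55 ± 0.49, and 2 fell, mir-146a at -1.17 ± 0.30 and mir-155 at -1.24 ± 0.36 (edgeR adjusted p 0.031, 0.033, 0.012 and 0.021), beside 13.6% and 8.8% of all miRNAs. Against nodular hyperplasia mir-9 rose at 2.94 ± 0.52, and mir-146a, mir-146b and mir-155 fell at -0.92 ± 0.30, -1.94 ± 0.42 and -2.24 ± 0.37 (adjusted p 0.0013, 0.042, 0.0050 and 0.00073), beside 10.4% higher and 8% lower of all miRNAs. Between nodular hyperplasia and normal spleen, mir-146b alone was called, higher at 2.57 ± 0.43 (adjusted p = 0.0028), beside 5.6% of all miRNAs. The median log2 fold changes of the list were 0.26, -0.45 and 0.44.

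Libraries had 3040736 to 7548062 mature reads. Marker miRNAs of other cell types differed between groups. The endothelial mir-126 had a range of 3006 to 13777 CPM in the tumors, against 824 to 2536 in the hyperplastic and 2161 to 2734 in the normal spleens. It was highest in tumor replicate 3, where mir-224 and mir-452 were lowest, and lowest in replicate 2, the next lowest for both. Replicates 4 and 5, at the top of the order for both, had 8520 and 11147 CPM of mir-126. The blood and lymphoid pair mir-142 and mir-150 summed to 1193 to 7102 CPM in the tumors, against 12726 to 26975 in the hyperplastic and 6934 to 11436 in the normal spleens. The 4 smooth muscle and fibroblast miRNAs summed to 83931 to 512972 CPM in the tumors, 69466 to 213357 in the hyperplastic and 348048 or more in the normal spleens. The 4 pancreas miRNAs, all measured, summed to 3518 CPM in tumor replicate 3 and to at most 6.05 CPM in the other tumors, and the 3 liver miRNAs to 3234 CPM against at most 1130.2 CPM in the other tumors. Most of this liver sum was mir-192 (2822 CPM), while mir-122 was at 3.41 CPM in replicate 3, lower than in any other tumor. The 7 epithelial miRNAs summed to 9.26 to 32.3 CPM in the tumors and to 37.6 CPM or more in the other groups, with mir-200b at 0 outside the tumors. Erythroid miRNAs reached 15549 to 53992 CPM in the tumors, 22474 to 88112 in the hyperplastic and 44614 to 151082 in the normal spleens. For striated muscle miRNAs the ranges were 399 to 5182, 81.4 to 2004 and 4690 to 14185 CPM in the same order. The part of these cell types in the levels of mir-224 and mir-452 was not tested.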

How the data were processed

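The authors sequenced small RNA from each spleen on an Illumina instrument, checked, trimmed and counted the reads in CLCbio against canine miRBase hairpins, and deposited raw counts per hairpin and library, split into reads on the mature sequence of either arm and reads elsewhere. The submitters' processing notes name FastQC and canFam3. No version of CLCbio is given in the sources used here. A further deposited column, of expression values, equals the 5' arm count and was left unused.

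The counts on the 5' and 3' arm were summed, as were copies of one miRNA, giving 277 miRNAs, 263 with reads. edgeR 4.0.16 was run on the 250 that reached a sum of 10 counts (R 4.3.3, limma 3.58.1), with TMM factors, group means of the 3 groups in 1 fit, quasi-likelihood test, Benjamini-Hochberg adjustment over all 250 within a comparison, threshold 0.05. The paper's methods state t tests on these values, and a count model was used because the values are counts. The SE of a log2 fold change was worked back from the test, as its absolute value divided by the square root of the F statistic. CPM divides by the library total times its TMM factor, and CPM therefore need not add up to 1e+06. Each animal is 1 replicate, and the 30 library pairs of the same group all differed beyond sampling noise.

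The members and lists were chosen with earlier results of these data known. mir-224 and mir-452 were chosen on the compared counts, so their values are given without a p-value. Named besides them are the nearest hairpins on chromosome X, the chromosome X miRNAs called in a comparison (at most 5 in each direction), the 5 miRNAs most like each of them, and the called members of the NF-kB list. Of the 313 hairpins, 307 matched the RefSeq gene table. mir-19b and mir-92a, with copies elsewhere, were left out of the chromosome X list. Adjacent pairs lie within 10000 bases of each other and average at least 10 counts. The edgeR step was tested on simulated data. Alternatives were other scalings, filters and count columns, DESeq2 1.42.0, limma voom, a replicate block, only the groups compared, another prior count, and each library left out. Tables and plots were made with pandas 2.3.3, numpy 2.4.6, matplotlib 3.10.9 and scipy 1.17.1 under Python 3.11.15.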

Additional observations from a re-analysis of the deposited data

Results flagged for a closer look

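Of 51 groups of 5 values examined for a sample far from the others, 4 held one, where chance alone marks about 1 in 20 groups. None was a value of mir-224 or mir-452, and all 4 were sums of marker miRNAs. The groups share libraries, and the rate of 1 in 20 was not checked for skewed values such as CPM, so it need not hold here. In hemangiosarcoma replicate 3, the tumor with the lowest mir-224 and mir-452, the pancreas miRNAs summed to 3518 CPM, nearly all of it mir-375 (3486 CPM), and the liver miRNAs to 3234 CPM. Of the liver sum, mir-192 gave 2822 CPM and mir-122 only 3.41 CPM. The endothelial mir-126 reached 2536 CPM in nodular hyperplasia replicate 3, which had the lowest mir-452 of its group. The pancreas miRNAs summed to 6.60 CPM in normal spleen replicate 1, which had the lowest mir-224 of its group.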

How the results depend on the processing

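mir-224 and mir-452 kept their direction in hemangiosarcoma against both other groups, and were called, in all 27 settings, with log2 fold changes of 4.67 to 6.50 and 2.94 to 4.30 against normal spleen and of 3.69 to 5.45 and 3.44 to 4.32 against nodular hyperplasia. Between nodular hyperplasia and normal spleen they were called in no setting, at 0.20 to 1.46 and -0.67 to 0.22. Nothing is read from these calls, because both hairpins were chosen on these counts and the settings reuse the same libraries. Leaving out each library gave mean log2 ratios of mir-452 to mir-224 of 0.66 to 1.07 in the tumors, 1.65 to 2.20 in the hyperplastic and 2.53 to 3.00 in the normal spleens. The counts of calls were less stable, and the cause was not tested. Against normal spleen, 56 miRNAs were called in hemangiosarcoma, 24 with unscaled counts (23 higher, 1 lower), 47 with library totals (46 higher, 1 lower), and 36 (without normal spleen replicate 2 or 4) to 61 with a library left out. Against nodular hyperplasia 46 were called, 22 with library totals or with only the groups compared, 34 with unscaled counts (16 higher, 18 lower), and 26 (without nodular hyperplasia replicate 2, and 29 without hemangiosarcoma replicate 1) to 60 with a library left out. Between nodular hyperplasia and normal spleen 31 were called, 51 with library totals (45 higher, 6 lower), 16 with unscaled counts (11 higher, 5 lower), 57 with DESeq2, 56 with only the groups compared, and 4 (without normal spleen replicate 2) to 46 with a library left out, with 15 to 19 without nodular hyperplasia replicate 2 or 5 or normal spleen replicate 1 or 4. Of the other chromosome X miRNAs, 9 were called in hemangiosarcoma against normal spleen (4 with unscaled counts, 5 to 12 with a library left out, with 5 without hemangiosarcoma replicate 4 or normal spleen replicate 1 or 2), 1 against nodular hyperplasia (1 to 3, with 3 without hemangiosarcoma replicate 2 or nodular hyperplasia replicate 3 or 5), and 1, lower, between the other groups (2 lower with DESeq2 size factors, but 4 higher and 0 lower with library totals, where mir-504 was not called at an adjusted p of 0.29, 0 with unscaled counts, 0 to 4 with a library left out, with 0 without any 1 normal spleen or nodular hyperplasia replicate 1, 4 or 5, and 4 without hemangiosarcoma replicate 3 or nodular hyperplasia replicate 3).

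With the replicate number as a replicate block, 29 miRNAs were called in hemangiosarcoma against nodular hyperplasia and 43 against normal spleen, and mir-224 stood at 4.45 and 4.71. The labels give the number only as a name. Correlations between the deviations of same-numbered libraries had both signs (-0.37 to 0.35 over 15 pairs, 5 of them over 0.1). Those of replicate 1 were 0.19, 0.35 and 0.30. Whether same-numbered libraries deviate together was not tested. In normal spleen mir-224 rests on 3 to 16 reads per library, which limits the precision of its level there.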
